A study of Arabidopsis thaliana with 9 samples.

Results

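Small RNA reads were compared between prors1 (LUC) and Col-0 (LUC), a pair of Arabidopsis thaliana genotypes with 3 libraries each, across all loci that reached 10 normalized reads in at least 3 of these 6 libraries. This choice kept 4527 of the 37336 loci listed, and between 95.7% and 96.7% of each library's reads fell on them. Normalized reads are reads per locus divided by a size factor per library, and they are not corrected for locus length. The study asked how small RNA accumulation differs between mutants and Col-0 (LUC), and its title names the RNA-binding protein RBP45D, flowering time under heat and RNA-directed DNA methylation.

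The prors1 (LUC) plants carry a mutant genotype named after PRORS1, which encodes the prolyl-tRNA synthetase of both organelles. Col-0 (LUC) is the matching line in the standard laboratory accession, and the labels do not say what LUC marks in either genotype. The source label calls the prors1 (LUC) libraries rbp-ko-1, and it cannot be told here which label is right. Both genotypes grew on soil for 25 days with 16 h of light and 8 h of dark (another label gives 26 days). RNA came from plants with no organ named, 30 µg was run on a gel, the 17 to 30 nt band was cut out, and a NEBNext small RNA kit made the libraries. Nothing states that libraries came from separate plants, so the p-values below measure only the spread between these libraries.

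Plant small RNAs are mostly cut by Dicer-like enzymes from double-stranded RNA or from microRNA hairpins and then guide Argonaute proteins to matching RNA or DNA. Most come from transposons and pseudogenes and guide DNA methylation there, while a cut by some microRNAs turns a transcript into double-stranded RNA and so into trans-acting or secondary siRNAs. Fragments of structured or chloroplast RNA of the same size enter such libraries too. A small RNA read at a gene therefore does not measure its mRNA.

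Depth was alike, with 611238 to 633692 reads in the prors1 (LUC) libraries and 613230 to 702303 in the Col-0 (LUC) libraries. Fewer loci had any read in prors1 (LUC), 13649 to 13956 per library against 14435 to 15793 in Col-0 (LUC), with no overlap. A single locus, AT3G15920, took 13.2% to 22.3% of the reads of a prors1 (LUC) library and 13.6% to 20.4% of a Col-0 (LUC) library, so the ranges overlapped. PRORS1 (AT5G52520) had 8.42, 4.82 and 3.08 normalized reads in prors1 (LUC), against 0, 0.803 and 0 in Col-0 (LUC), too few to be tested here. RBP45D (AT5G19350) had 1 read in prors1 (LUC) as a whole and 0 in Col-0 (LUC). Neither value checks the genotypes.

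The sequences that several of the results turn on are given first. The mature microRNAs below have their seed, bases 2 to 8, in capitals, and are shown because their genes overlap called loci or because near-complementary sites lie in called loci. They were read from the RefSeq TAIR10.1 genome at the annotated mature microRNAs.
ath-miR828: tCTTGCTTaaatgagtattcca
ath-miR780.1: tCTAGCAGctgttgagcaggt
ath-miR780.2: tTCTTCGTgaatatctggcat
ath-miR826a: tAGTCCGGttttggatacgtg
ath-miR826b: tGGTTTTGgacacgtgaaaat
ath-miR169a-5p: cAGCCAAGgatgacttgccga
ath-miR824-5p: tAGACCATttgtgagaaggga
ath-miR859: tCTCTCTGttgtgaagtcaaa
ath-miR393a-5p: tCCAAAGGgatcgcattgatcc

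The next lines show stretches of the called loci themselves, each read 5′ to 3′ on the strand of its gene. Capitals mark bases that differ from the perfect complement of the microRNA, and some of these form G:U wobble pairs with it.
TAS4 site of miR828, chr3:9417809-9417830, minus strand: tggaatactcatttGagcaaga
AFB2 site of miR393, chr3:9870237-9870258, plus strand: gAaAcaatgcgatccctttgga
AT5G41490 site of miR859, chr5:16601147-16601167, plus strand: tttgacttTacaaGagagagT
AT1G62270 site of miR859, chr1:23005222-23005242, plus strand: tttgacttTacTacagaAaga
AT1G32140 site of miR859, chr1:11563282-11563302, minus strand: tttgaTttTacaacCgagaga

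At an adjusted p of 0.05 (limma on log2(normalized reads + 1) with a mean-variance trend, Benjamini-Hochberg over the 4527 loci), 540 loci were called, 11.9% of those tested. Of these, 297 were higher in prors1 (LUC) (6.56%) and 243 lower (5.37%). The number depended on the fit: DESeq2 called 283, limma without the trend 300, limma without Col-0 (LUC) replicate 1 345 (149 lower), and limma without prors1 (LUC) replicate 1 359 (188 higher). Without Col-0 (LUC) replicate 3, 151 were lower. Most changes were small: 335 of the 540 differed by less than 2-fold, 103 were higher (2.28%) and 102 lower (2.25%) by 2-fold or more, and 24 and 33 passed 4-fold. Over every locus tested the median log2 fold change was 0.01. In 525 of the 540 called loci the groups did not overlap, and over all tested loci this held for 27.6%. A fold change on this scale understates the change of loci with few reads.

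The balance of the directions depended on the scaling. With the total number of reads as the only factor, chosen after seeing the data, the median log2 fold change moved to -0.13, and 166 loci were higher and 367 lower, so that 31.1% of calls were higher rather than 55%. Over the other scalings the share of higher calls lay between 50.7% and 55.2%. In all, 212 loci (115 higher, 97 lower) were called in the same direction by limma, by edgeR and DESeq2 on the recovered reads, by limma without the trend, and with each of the 6 libraries left out.

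Some loci had to differ in order to be tested. Of the 4527 loci, 37 reached 10 normalized reads in prors1 (LUC) libraries only and 62 in Col-0 (LUC) libraries only, and 24 of the first were called higher and 37 of the second lower. Of the loci named below, the first kind holds CAB3, CAB2, SIG2, AT2G19200, AT3G56275, AT1G20300, NAC105, AT5G14060, AT1G07887, AT1G66490, AT1G62270 and AT1G66310. The second kind holds DEG6, AT1G70080, AT5G43755, AT2G06995, AT3G51238, AT3G50300, AT3G13404, LCR26, AT3G03405, AT4G12820 and AT5G67120. Their values describe them, and no p against Col-0 (LUC) is given for them. Among the 4428 loci that reached it in both genotypes, 273 were higher and 206 lower (10.8%). At the edge of the choice, AT1G29630 was kept with a value of 10.03 in its third-highest library and AT4G03911 was left out with 9.64.

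Chloroplast-encoded loci were the class with the highest share of calls. The tested members numbered 101 of 133, of which 66 were higher in prors1 (LUC) and 2 lower, 67.3% called against 11.9% over all loci, and log2 fold changes ran from -1.21 to 3.03 around a median of 0.81. Without prors1 (LUC) replicate 1, and likewise without the trend, 43 were higher. Among the 96 that reached 10 normalized reads in both genotypes, 63 were higher and 2 lower. Their share of reads was 4.25%, 3.45% and 3.84% in prors1 (LUC), against 2.50%, 2.44% and 2.43% in Col-0 (LUC). The groups did not overlap, and the two-sided exact permutation test over 3 against 3 libraries gave p = 0.1, the smallest it can give (0.32 after adjustment over 8 classes). With total reads as the factor 54 were higher, 3 lower and the median was 0.67. More such RNA per cell and more cells that hold it cannot be told apart in RNA from plants with no organ named.

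The files and the annotation used here do not pair the organelle identifiers with gene names, so only a few are named. ATCG00660 had 330, 301 and 310 normalized reads in prors1 (LUC), against 40.1, 36.96 and 35.9 in Col-0 (LUC), the largest log2 fold change of the class at 3.03 ± 0.12 (SE, limma adjusted p = 3.67e-12). ATCG00340 had 845, 385 and 747 in prors1 (LUC), against 82.8, 92.4 and 88.1 in Col-0 (LUC), 2.82 ± 0.19 on the log2 scale. Every prors1 (LUC) library lay far above every Col-0 (LUC) library at both loci, although the prors1 (LUC) libraries differed among themselves at the second. In the opposite direction, ATCG00700, chosen after its values were seen, had 482, 340 and 400 in prors1 (LUC), against 962, 832 and 1020 in Col-0 (LUC) (-1.21 ± 0.12, adjusted p = 1.10e-06). The class thus held a few loci with fewer reads beside the many with more.

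**Figure D1:**
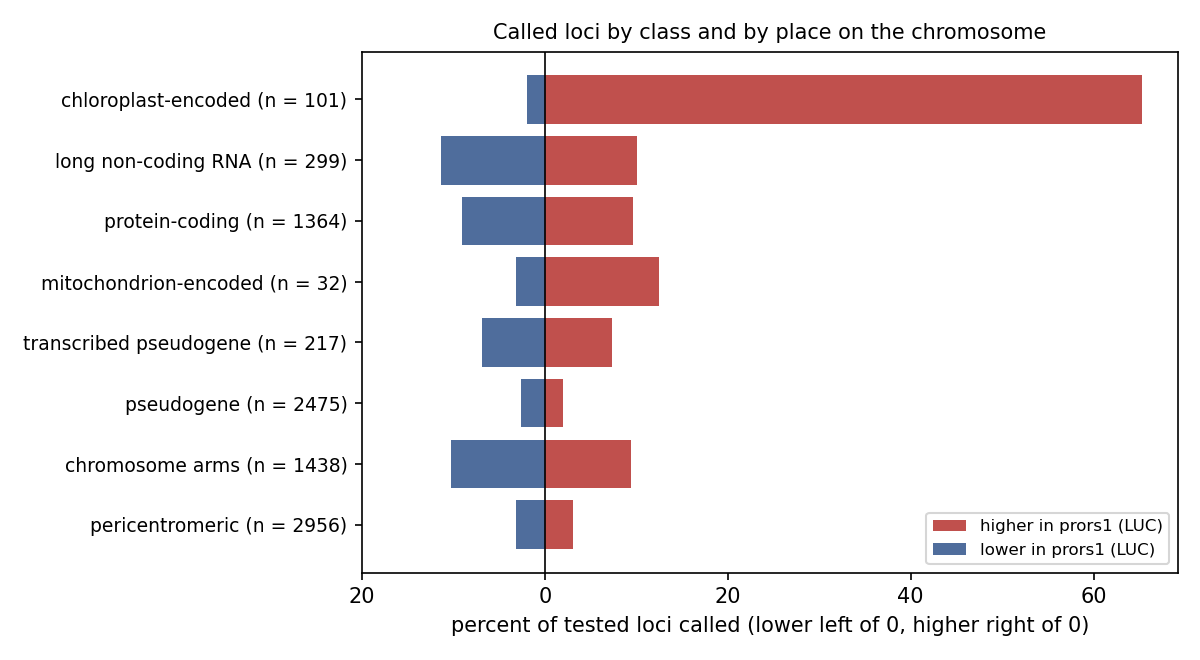
Percent of tested loci called higher (right of 0) or lower (left of 0) in prors1 (LUC) by annotated class, and for nuclear loci by place on the chromosome (x axis, percent), with the number tested beside each name. Chloroplast-encoded loci reached 65.3% higher and 1.98% lower, while pseudogenes stayed at 1.98% higher and 2.67% lower.

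Of 32 tested mitochondrion-encoded loci, 4 were higher and 1 lower (15.6%, close to the 11.9% over all loci), and the median on the log2 scale was 0.41. Their share of all reads was 0.419%, 0.399% and 0.394% in prors1 (LUC), against 0.483%, 0.446% and 0.424% in Col-0 (LUC), so the class took a smaller share while its median locus was higher. The locus with most of these reads, ATMG00030, had 1389, 998 and 1143 normalized reads in prors1 (LUC), against 1573, 1460 and 1683 in Col-0 (LUC). Its groups did not overlap (-0.43 ± 0.12, limma adjusted p = 0.0239), but the call was lost under 4 of 6 omissions of a library, with an adjusted p of up to 0.142, in DESeq2 (0.0584) and without the trend (0.188).

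Nuclear loci made of mitochondrial sequence had a median of the same sign as the mitochondrion-encoded loci. On chromosome 2, between 3247003 and 3484062 (TAIR10.1), lie 33 tested loci with at least 90% of their 21-base words in the mitochondrial genome, the well-known insertion of mitochondrial DNA next to that centromere. Summed over these loci there were 1754, 1644 and 1400 normalized reads in prors1 (LUC), against 1047, 1259 and 1095 in Col-0 (LUC), with no overlap (1599 ± 181 and 1133 ± 111, SD, n = 3 each, exact permutation p = 0.1). Of the 33, 28 had a positive log2 fold change, 8 were called higher and 0 lower in limma, and the median was 0.55. At an unadjusted p of 0.05 there were 17 higher and 0 lower, and edgeR called 8 and 0 and DESeq2 4 and 0. Over the other 4361 nuclear loci the median was -0.00, with 219 higher and 240 lower. With total reads as the factor the median of the 33 was 0.41 and 4 were higher.

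These 33 loci share their sequence with the mitochondrial genome, so their reads and those of mitochondrion-encoded loci cannot be told apart, and they are not independent of each other. AT2G07749, AT2G07674 and AT2G07673 show the spread of the called members, at 0.64, 0.69 and 1.12 on the log2 scale. AT2G07748 had the lowest value, -0.57, which did not pass the test. Of the 7 nuclear loci with at least 20% of their 21-base words in the plastid genome, 1 was higher and 0 lower in limma, with a median of -0.02. At an unadjusted p of 0.05 there were 2 higher and 1 lower, and edgeR called 1 and 0 and DESeq2 0.

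**Figure D2:**
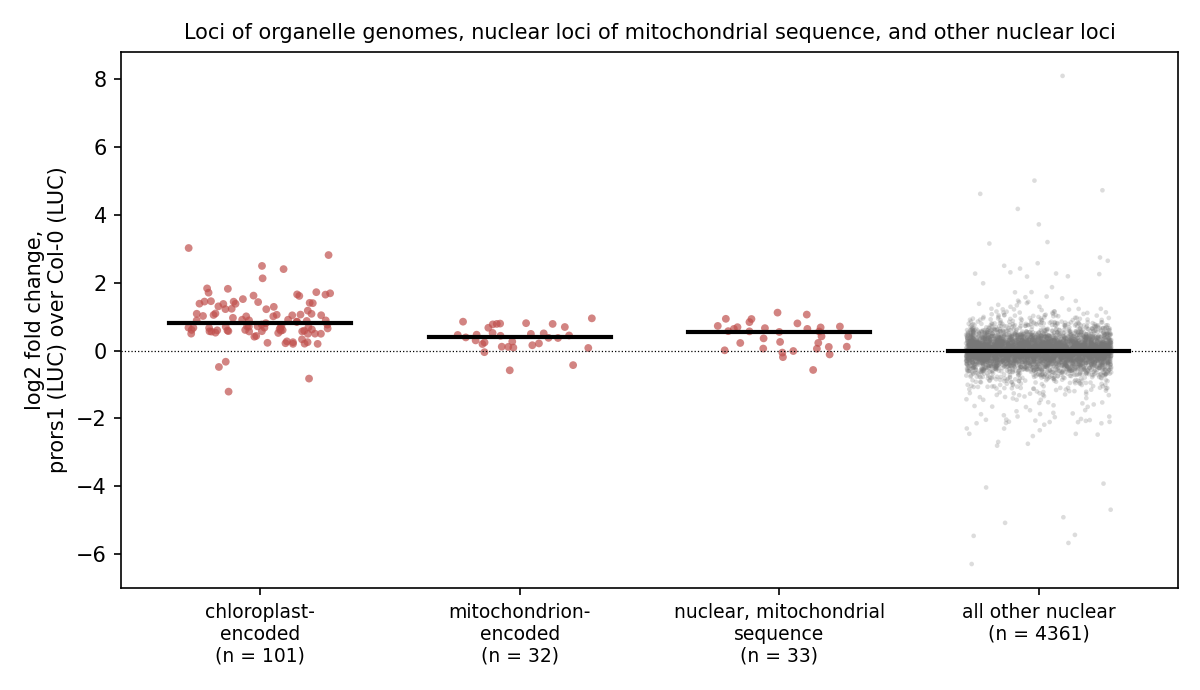
Log2 fold change of prors1 (LUC) over Col-0 (LUC) (y axis) for each tested locus (points, spread sideways at random), with the median of each class as a black line. The medians were 0.81 for chloroplast-encoded loci, 0.41 for mitochondrion-encoded loci, 0.55 for nuclear loci of mitochondrial sequence and -0.00 for all other nuclear loci, whose points reach farthest in both directions.

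Among nuclear loci, place and class went with how many were called. Within 3 Mb of the rounded centromere positions, where transposons and pseudogenes are dense, 91 of 2956 loci were higher and 93 lower (6.22% called). On the arms 136 of 1438 were higher and 147 lower (19.7%). The same order was seen within protein-coding loci, 22.8% on the arms and 12.1% near centromeres, and within pseudogenes, 8.36% and 4.04%. Long non-coding RNA loci reached 21.4% and protein-coding loci 18.6%, while pseudogenes, the largest class with 2475 tested, reached 4.65%. Part of these calls came from loci that had to differ in order to be tested. Among loci that reached the minimum reads in both genotypes, 117 of 1377 arm loci were higher and 116 lower (16.9%). Near centromeres 89 of 2924 were higher and 87 lower (6.02%). On this condition long non-coding RNA loci reached 18.9%, protein-coding loci 16.6% and pseudogenes 4.37%, so the order was kept. Shares by place within each class were not recounted. With total reads as the factor, pericentromeric loci had 28 higher and 164 lower calls and arm loci 82 and 199, so no direction is given for these classes.

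Level and sequence moved with these shares too. Of loci with a mean under 20 normalized reads 6.27% were called, and of those with at least 300 reads 24.3%, while the median size of a called change was 1.35 and 0.56 on the log2 scale. Called nuclear loci were also less repeated: the median share of 21-base words found once in the genome was 95.6% for loci called higher, 95.3% for loci called lower, and 79.9% for loci not called. The part of level and of repeated sequence in the shares by place and class was not tested.

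CAB3 and CAB2 encode chlorophyll a/b-binding proteins of the light-harvesting antenna of photosystem II, and both gained small RNA. CAB3 (AT1G29910, chr1:10472280-10473502, minus strand) had 961, 1229 and 920 normalized reads in prors1 (LUC), against 4.18, 4.02 and 1.02 in Col-0 (LUC), a log2 fold change of 8.10 ± 0.26 (SE). CAB2 (AT1G29920), its neighbour, had 16.8, 26.0 and 20.5 in prors1 (LUC), against 0.836, 1.61 and 2.05 in Col-0 (LUC), 3.16 ± 0.40 on the log2 scale. Of the 21-base words of CAB3, 27.8% also occur in CAB2 and 57.4% occur nowhere else in the genome, so part of the CAB2 reads cannot be told from those of CAB3.

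The other nuclear photosynthesis genes tested, LHCB2.1 and LHCA2, had log2 fold changes of -0.40 and -0.12 with adjusted p of 0.515 and 0.873 in limma. The 20 members of this list with too few reads summed to 144 reads in the prors1 (LUC) libraries and 135 reads in Col-0 (LUC). SIG2 (AT1G08540) encodes one of the sigma factors that direct the plastid-encoded RNA polymerase. It had 24.2, 22.2 and 24.6 normalized reads in prors1 (LUC), and each Col-0 (LUC) library had 0, at least 26.9-fold higher when Col-0 (LUC) is set to a floor of 3 reads in all. The other 10 members of the list of sigma factors and plastid signalling genes were not tested, with 57 reads in prors1 (LUC), against 40 in Col-0 (LUC).

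**Figure D3:**
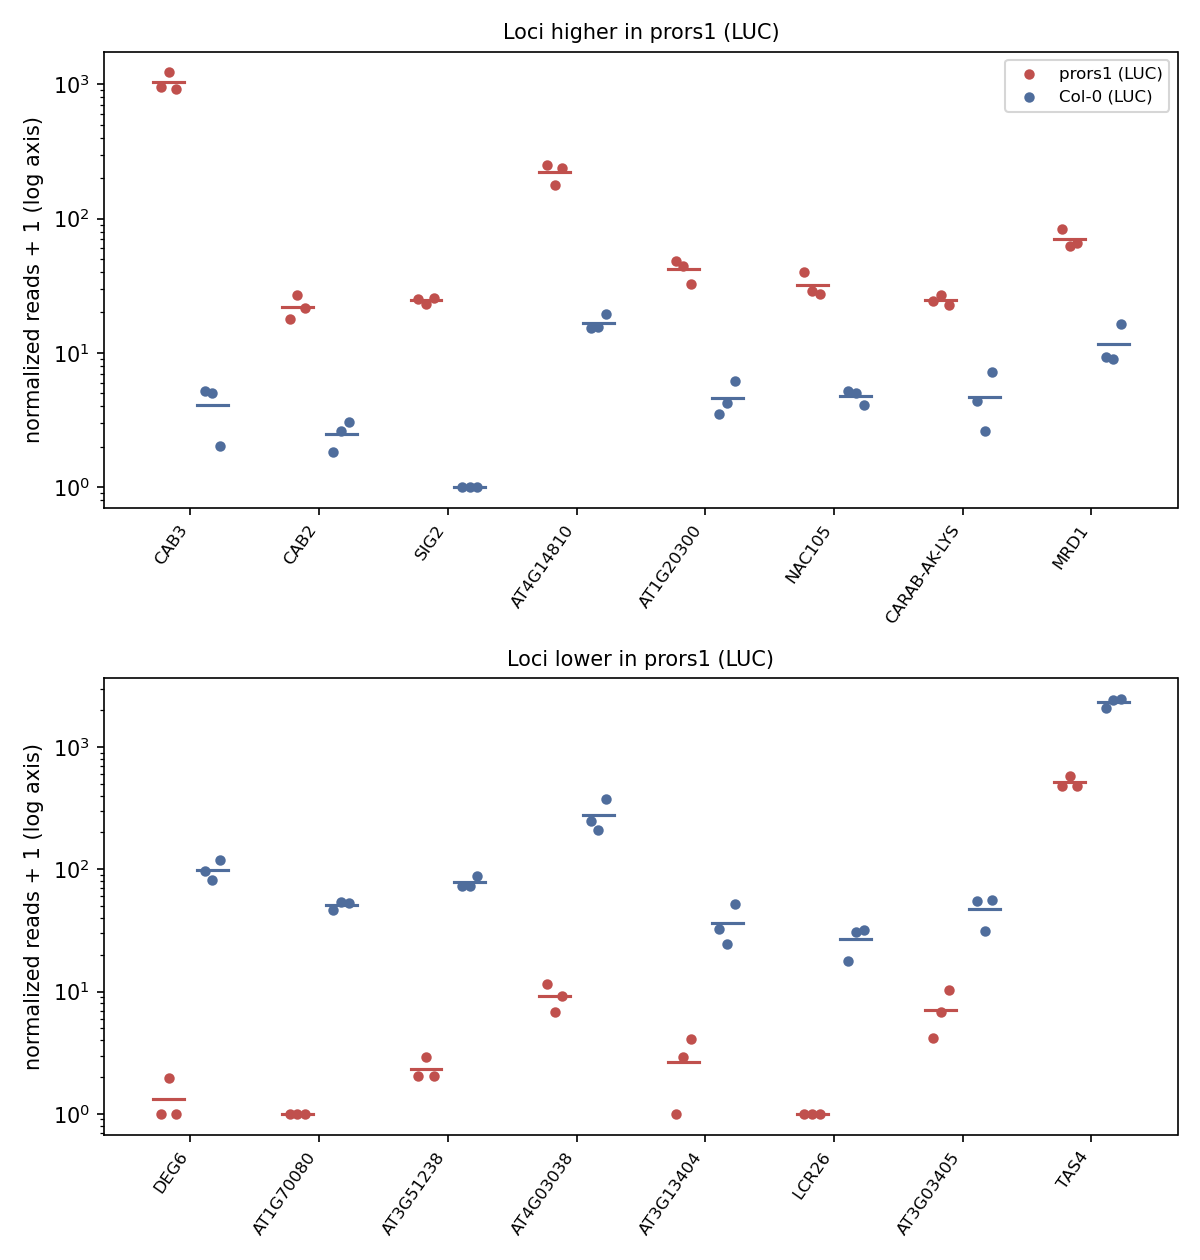
Normalized reads plus 1 in each library (y axis, log scale) for 8 loci higher in prors1 (LUC), above, and 8 lower, below, each with prors1 (LUC) libraries in red left of Col-0 (LUC) libraries in blue and the group mean as a line. No pair of groups overlapped, which was fixed for most of them by how the loci were chosen. SIG2 had 0 reads in Col-0 (LUC), AT1G70080 and LCR26 in prors1 (LUC).

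Other loci far higher in prors1 (LUC) were of mixed kinds. The transcribed pseudogene AT2G19200 had 69.5, 34.7 and 63.6 normalized reads in prors1 (LUC), against 1.67, 0.803 and 0 in Col-0 (LUC). From 164 and 3 recovered reads the ratio was 63.0 (95% exact interval 21.2 to 309, counting error only). AT3G56275, a pseudogene too, had 57.0 ± 7.58 and 2.47 ± 1.65 (SD, n = 3 each), a log2 fold change of 4.18. The pentatricopeptide repeat gene AT1G20300, of a family of organelle RNA-binding proteins, had 47.4, 43.4 and 31.8 in prors1 (LUC), against 2.51, 3.21 and 5.12 in Col-0 (LUC) (3.20 ± 0.31). That no groups overlapped here was fixed by the choice of loci, since each reached 10 normalized reads in prors1 (LUC) libraries only.

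NAC105 (AT5G66300), a transcription factor gene of the NAC family, averaged 31.2 ± 6.74 normalized reads in prors1 (LUC), against 3.76 ± 0.597 in Col-0 (LUC), 2.75 ± 0.31 on the log2 scale. The lectin gene AT3G53065 averaged 58.2 ± 16.7 and 9.51 ± 4.62 in the same order, and AT5G14060, an aspartate kinase gene of amino acid synthesis, 23.6 ± 2.27 and 3.70 ± 2.29. The long non-coding AT1G07887 averaged 102 ± 16.7 in prors1 (LUC), against 3.00 ± 1.23 in Col-0 (LUC), and MRD1 (AT1G53480), which lies over it on the other strand, 69.5 ± 11.03 and 10.6 ± 4.15. Strand handling in the authors' counts is not given in the sources used here, so reads of such overlapping loci cannot be told apart.

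Among the loci that lost nearly all small RNA, DEG6 (AT1G51150), a DegP-type protease gene, had 0, 0.964 and 0 normalized reads in prors1 (LUC), against 95.3, 81.1 and 119 in Col-0 (LUC). The terpenoid cyclase gene AT1G70080 had 0 in each prors1 (LUC) library, against 45.2, 53.0 and 52.3 in Col-0 (LUC). This is at least 49.4-fold lower when prors1 (LUC) is set to the same floor. AT5G43755, annotated as a reverse transcriptase-like gene of a non-LTR element, had 1.05, 2.89 and 8.21 in prors1 (LUC), against 178, 206 and 169 in Col-0 (LUC), -5.46 ± 0.36 on the log2 scale. The separation of the genotypes was fixed by the choice of loci here, since each reached 10 normalized reads in Col-0 (LUC) libraries only. The Col-0 (LUC) libraries lay close together.

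The long non-coding AT2G06995 had 1 read in prors1 (LUC) as a whole and 187 in Col-0 (LUC). AT3G51238, a non-coding locus opposite to F3H, the gene of flavanone 3-hydroxylase in flavonoid synthesis, had 1.05, 1.93 and 1.03 normalized reads in prors1 (LUC), against 71.9, 72.3 and 87.1 in Col-0 (LUC) (-5.08 ± 0.30). F3H itself had 1 and 4 reads, in prors1 (LUC) and Col-0 (LUC). AT1G06002 averaged 8.91 ± 5.18 in prors1 (LUC), against 43.8 ± 4.38 in Col-0 (LUC), opposite to the glycosyltransferase gene AT1G06000, which had 23 and 22 reads. In both pairs most Col-0 (LUC) reads were counted for the non-coding partner.

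Further large decreases were found at AT3G50300, an acyltransferase gene (1.31 ± 1.46 in prors1 (LUC), against 32.8 ± 10.6 in Col-0 (LUC)), and at AT3G23570, an alpha/beta-hydrolase gene (45.8 ± 18.4 and 260 ± 65.1). AT1G17340, a phosphoinositide phosphatase gene, averaged 14.4 ± 7.68 in prors1 (LUC), against 75.9 ± 4.76 in Col-0 (LUC). AT4G04760, of the major facilitator transporters, averaged 7.00 ± 3.12 and 38.4 ± 8.02. Their log2 fold changes lay between -4.04 and -2.35. The groups did not overlap at any of the 4, which was a condition for naming them.

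TAS4 (AT3G25795) is cut by miR828 and gives trans-acting siRNAs against MYB genes of the anthocyanin pathway. It had 475, 583 and 478 normalized reads in prors1 (LUC), against 2101, 2406 and 2470 in Col-0 (LUC), a log2 fold change of -2.18 ± 0.11 (limma adjusted p = 7.87e-11). TAS4 was the one tested nuclear locus among 4394 with a miR828 site of at most 3 mismatches. The stretch of TAS4 that best matches PAP1 and PAP2 (MYB90) is printed below with their matching stretches. It was chosen by sequence alone, and no siRNA position was used. Each is on the strand of its gene, with the base of PAP2 that differs in capitals.
TAS4, chr3:9417736-9417756, minus strand: gcctcgacctcgatccttcac
PAP1, chr1:21234021-21234041, minus strand: gcctcgacctcgatccttcac
PAP2, chr1:24765073-24765093, plus strand: gcctcgacctcgatccttcTc

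These MYB genes had few small RNA reads and were not tested. PAP1 (AT1G56650) had 4.21, 2.89 and 3.08 normalized reads in prors1 (LUC), against 7.53, 12.1 and 6.15 in Col-0 (LUC), and MYB113 (AT1G66370) had 4.21, 3.85 and 7.18, against 12.5, 15.3 and 8.20. Both had fewer reads in every prors1 (LUC) library than in any Col-0 (LUC) library, as had 9.29% of the 1098 untested loci with a mean of at least 5 normalized reads. PAP2 had 5 reads in prors1 (LUC) as a whole and 9 in Col-0 (LUC).

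The other 7 trans-acting siRNA loci did not pass the test, with log2 fold changes from -0.58 (TAS3C, adjusted p = 0.0635) to 0.37 (TAS1A, 0.307). The 8 loci together took 10.0%, 13.7% and 11.3% of the reads in prors1 (LUC), against 13.0%, 13.3% and 11.9% in Col-0 (LUC), and these ranges overlapped (two-sided exact permutation p = 0.5). Of 21 pentatricopeptide repeat genes of the chromosome 1 cluster that yields secondary siRNAs, 15 were tested and 0 passed in limma, with a median of -0.14. At an unadjusted p of 0.05 there were 0 higher and 3 lower, and edgeR and DESeq2 called 0. Of 10 NLR disease resistance genes known for secondary siRNAs, 5 were tested and 1 was higher, AT5G38850, with 2567, 2577 and 2724 normalized reads in prors1 (LUC), against 1902, 1774 and 2122 in Col-0 (LUC) (0.44 ± 0.11, adjusted p = 0.0107). Its call was lost without prors1 (LUC) replicate 3 (0.0786), and with total reads as the factor or without the trend.

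AFB2 (AT3G26810) encodes an auxin receptor, an F-box protein whose transcript miR393 cuts. It had 73.7, 77.1 and 79.0 normalized reads in prors1 (LUC), against 130, 121 and 149 in Col-0 (LUC), -0.79 ± 0.13 (limma adjusted p = 0.000313) with no overlap. TIR1 had 13.1 ± 5.28 and 20.01 ± 4.89, and AFB3 91.4 ± 16.5 and 98.6 ± 0.913, in the same order of genotypes, and neither passed the test. A miR393 site of at most 3 mismatches was found in these 3 tested loci and no other.

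Of 14 genes of microRNA function and post-transcriptional silencing, 5 were tested. ABH1 (AT2G13540) encodes the large protein of the nuclear complex that binds the RNA cap and takes part in microRNA processing. It had 95.8, 100 and 67.7 normalized reads in prors1 (LUC), against 157, 182 and 153 in Col-0 (LUC), -0.91 ± 0.15 (limma adjusted p = 0.000286). DCL4 (AT5G20320), the Dicer-like enzyme of trans-acting siRNAs, had 43.1, 59.7 and 24.6, against 21.7, 26.5 and 18.4, and here the groups overlapped. Its call (0.83 ± 0.27, adjusted p = 0.0497) was lost under 10 of 18 alternatives, with values of up to 0.275: when any of 4 of the 6 libraries was left out, with TMM, upper-quartile or total-read factors, with a pseudocount of 0.5, without the trend and in DESeq2. DCL1, AGO1 and AGO2 did not pass, with log2 fold changes of -0.14, -0.57 and 0.24.

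None of the 21 listed components of RNA-directed DNA methylation had enough reads, with 48 reads in all in prors1 (LUC), against 71 in Col-0 (LUC). The same held for the 9 organellar aminoacyl-tRNA synthetase genes, PRORS1 among them (39 and 48 reads), and for the 8 genes of the RBP45 and RBP47 family (4 and 7 reads). Of 23 flowering-time genes 2 were tested, FVE and FWA, and neither passed (adjusted p of 0.822 and 0.770). The floral organ and root hair lists had 0 tested members of 8 and 5. Of the other lists, 2 of 6 further trans-acting siRNA targets and 1 of 15 further microRNA targets were tested, and 0 were called in limma, in edgeR, in DESeq2 or at an unadjusted p of 0.05.

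The table lists no microRNA genes, but 38 tested loci overlap one, and 4 of these were higher and 6 lower in prors1 (LUC), 26.3% called against 11.9% over all loci. Among the 37 that reached 10 normalized reads in both genotypes, 4 were higher and 5 lower (24.3%). The largest increase was at AT4G14810 (chr4:8504145-8504509, plus strand), which holds both mature miR780 sequences on its opposite strand. It had 248, 176 and 237 normalized reads in prors1 (LUC), against 14.2, 14.5 and 18.4 in Col-0 (LUC) (3.72 ± 0.17, limma adjusted p = 1.68e-11). AT4G03038 (chr4:1340115-1341289, minus strand), which holds miR826a on the opposite strand and miR826b on its own, had 10.5, 5.78 and 8.21 in prors1 (LUC), against 249, 207 and 378 in Col-0 (LUC) (-4.92 ± 0.22). These loci moved in opposite directions, each with no overlap of the groups, which was a condition for naming them.

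AT3G13404, of unknown function, overlaps the MIR169a gene, a member of the microRNA family that targets nuclear factor Y subunits. It had 0, 1.93 and 3.08 normalized reads in prors1 (LUC), against 31.8, 23.3 and 51.2 in Col-0 (LUC) (-3.92 ± 0.47), but both mature miR169a sequences lie outside the locus as annotated. AT4G24413 holds miR824-5p, known to target the MADS-box gene AGL16, and had 612, 437 and 562 in prors1 (LUC), against 751, 1012 and 1034 in Col-0 (LUC) (-0.79 ± 0.14, limma adjusted p = 0.000471). HTA4, a histone H2A gene that holds miR841a on its opposite strand, averaged 120 ± 6.92 and 176 ± 26.5. Its call (adjusted p = 0.00924) was lost when Col-0 (LUC) replicate 1 was left out, and likewise for replicate 3 of prors1 (LUC).

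AT2G47020, which holds both arms of miR408 on its opposite strand, averaged 2738 ± 141 normalized reads in prors1 (LUC), against 3008 ± 372 in Col-0 (LUC), and the groups overlapped. The other 5 called loci had log2 fold changes between -0.68 and 0.60. The values used here do not separate reads by length, so microRNAs cannot be told from other small RNAs of these loci.

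**Figure D4:**
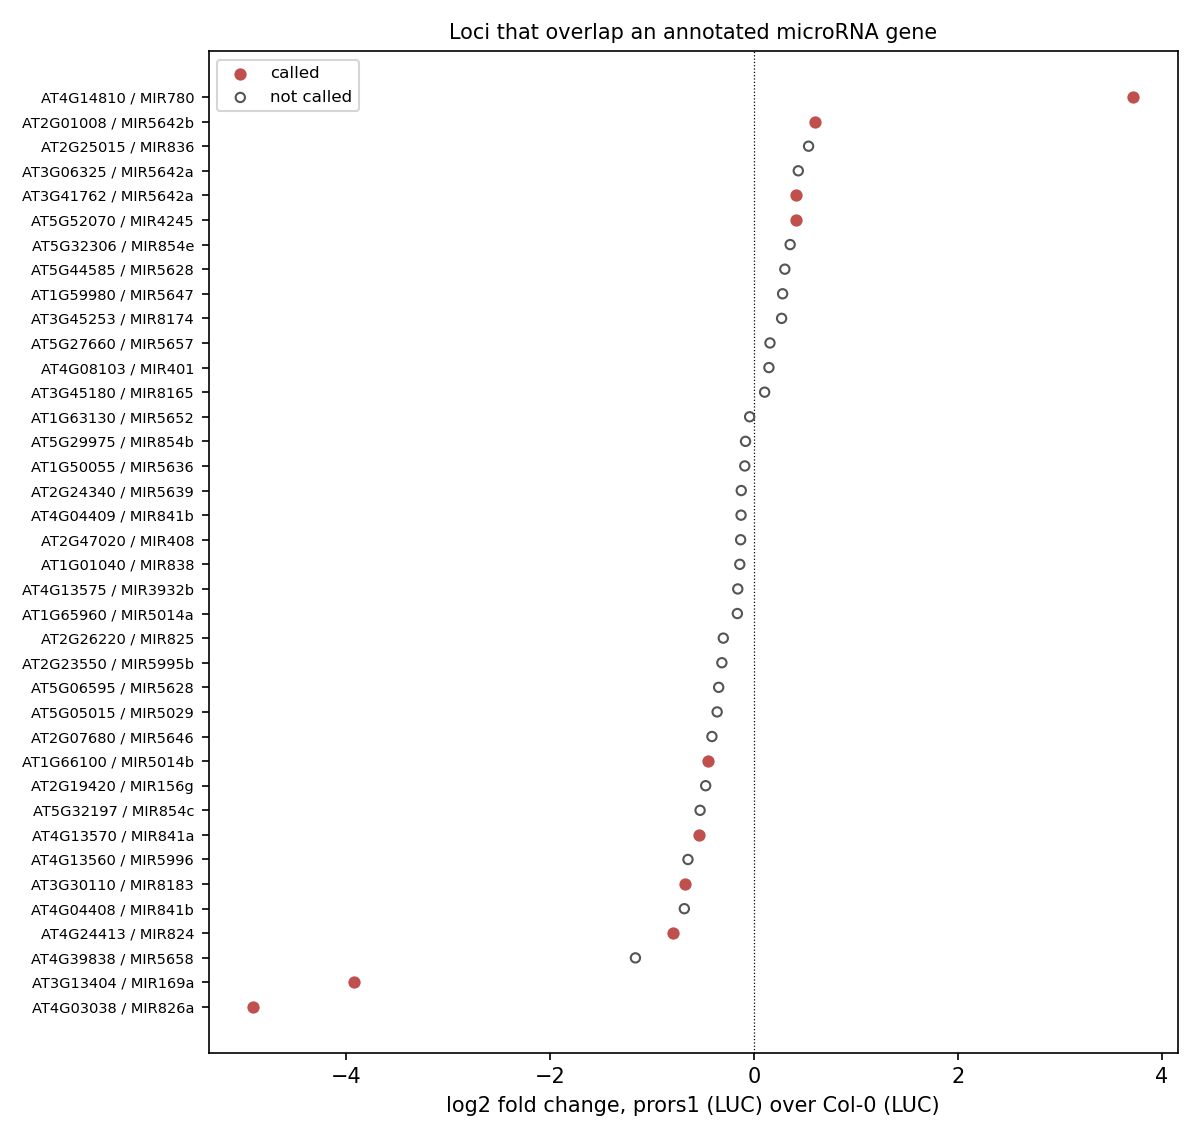
Log2 fold change of prors1 (LUC) over Col-0 (LUC) (x axis) for the tested loci that overlap an annotated microRNA gene, named as locus and microRNA gene, with called loci filled. AT4G14810 at MIR780 (3.72) stands at one end, and AT3G13404 at MIR169a (-3.92) and AT4G03038 at MIR826a (-4.92) at the other, while most lie near 0.

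F-box proteins, the parts of ubiquitin ligases that choose their targets, form a large plant family, and some members are known sources of secondary siRNAs. Of 66 tested F-box loci, 16 were higher and 8 lower in prors1 (LUC), 36.4% called beside 18.6% of all protein-coding loci, and the median on the log2 scale was 0.06. Among the 61 that reached 10 normalized reads in both genotypes, 13 were higher and 6 lower. With total reads as the factor 9 were higher and 12 lower, so the family as a whole has no direction here. The called F-box locus AT3G17400 had 1610, 1348 and 1506 normalized reads in prors1 (LUC), against 1044, 924 and 1143 in Col-0 (LUC) (0.52 ± 0.11, limma adjusted p = 0.00339). That call was lost without the trend (0.0925) and with total reads as the factor (0.0633).

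A run of 3 neighbouring F-box loci on chromosome 5 (16600445 to 16608326) was higher throughout. AT5G41490 had 34.7, 76.1 and 62.6 normalized reads in prors1 (LUC), against 12.5, 18.5 and 17.4 in Col-0 (LUC). AT5G41500 averaged 42.1 ± 2.80, against 10.1 ± 7.05, and AT5G41510 had 69.5, 69.4 and 79.0, against 15.1, 16.1 and 12.3. Their log2 fold changes were 1.72, 2.18 and 2.26, with limma adjusted p of 0.000135, 0.000455 and 1.49e-07, and no group overlapped. Over the genome, 22 runs of called loci within 10000 bases of each other and in the same direction held 46 loci, 13 runs higher and 9 lower, some of them overlapping pairs such as BLH1 and AT2G35945, both lower.

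On chromosome 1, AT1G66490 averaged 22.9 ± 1.89 normalized reads in prors1 (LUC), against 3.48 ± 0.485 in Col-0 (LUC), AT1G62270 24.7 ± 12.5 and 3.89 ± 1.07, and AT1G66310 19.5 ± 8.91 and 3.13 ± 1.48. The F-box loci that fell were led by AT3G03405 (6.06 ± 3.05 in prors1 (LUC), against 46.7 ± 14.05 in Col-0 (LUC)) and AT4G12820 (7.10 ± 0.318 and 44.2 ± 4.74). MEE66 averaged 6.48 ± 3.52 and 26.1 ± 3.82, and AT2G17305 48.8 ± 5.35 and 155 ± 9.60. The family thus held strong changes both ways.

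A miR859 site of at most 3 mismatches, as printed above for 3 of them, lay in 19 of the 4394 tested nuclear loci (0.432%), of which 12 were F-box loci. Of these 12, 5 were higher and 1 lower, beside 11 higher and 7 lower among the 54 F-box loci with no such site. A match is a description and shows no cut. Over all 19 loci 6 were higher and 2 lower, 42.1% called beside 11.9% over all loci tested. Their log2 fold changes ran from -4.04 (AT3G50300, the acyltransferase gene above) to 2.31 (AT1G62270, an F-box locus). Both of these reached 10 normalized reads in a single genotype only, so their separation was fixed by the choice of loci. AT1G32140, the F-box locus that fell, had 215, 215 and 231 normalized reads in prors1 (LUC), against 349, 302 and 359 in Col-0 (LUC) (-0.61 ± 0.11, limma adjusted p = 0.000633).

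**Figure D5:**
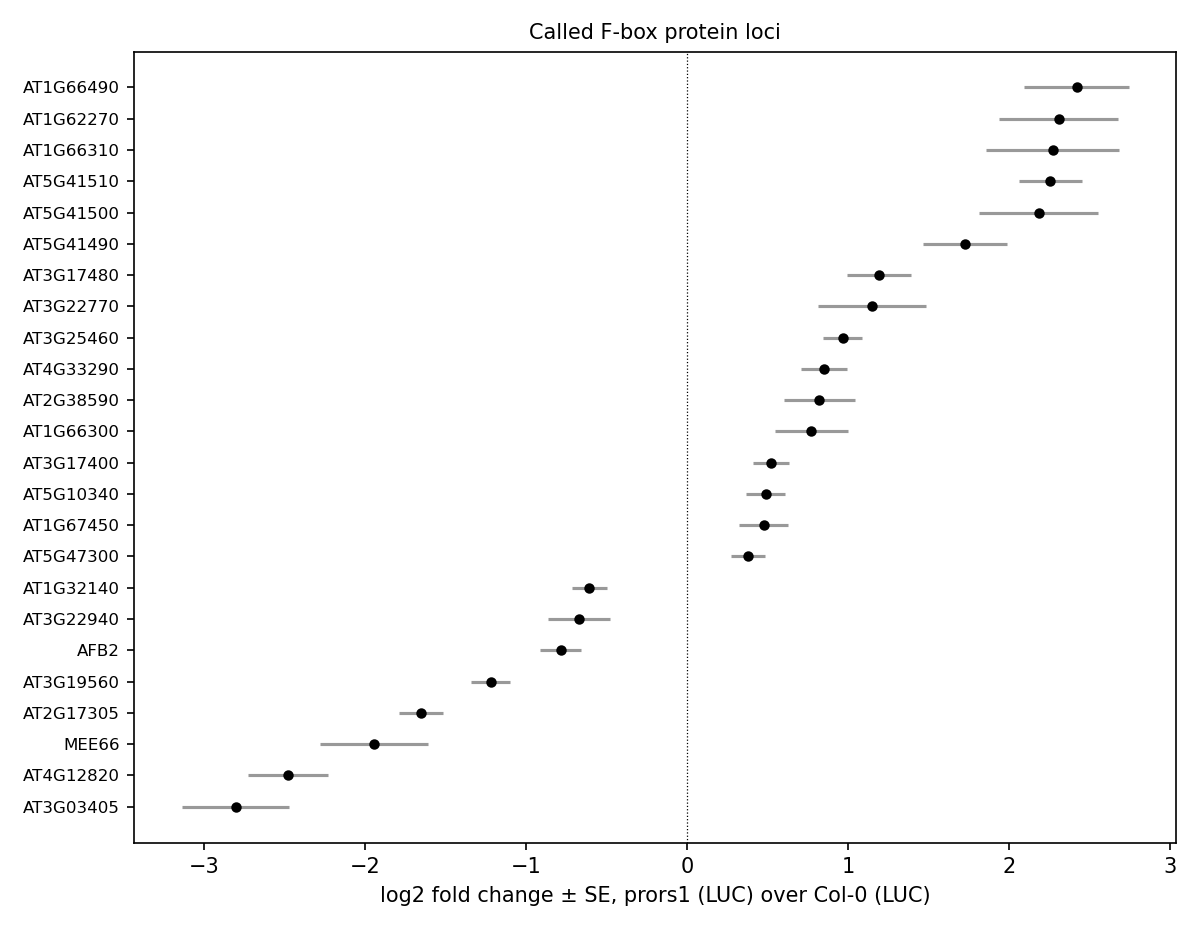
Log2 fold change of prors1 (LUC) over Col-0 (LUC) with its SE (x axis) for the 24 called F-box loci (rows from highest to lowest). The loci run from AT1G66490 at 2.42 to AT3G03405 at -2.80, with 16 above 0 and 8 below.

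The counts of the other families are given beside the 18.6% of all protein-coding loci. Of 24 tested loci of defensin-like and thionin peptides, small cysteine-rich proteins known for defence and pollen signalling, 1 was higher and 6 lower. LCR26 (AT4G29290) had 0 reads in each prors1 (LUC) library, against 16.7, 29.7 and 30.7 normalized reads in Col-0 (LUC), which is at least 25.2-fold lower. LCR25, which lies close to it, averaged 22.9 ± 2.83 and 49.3 ± 11.7 in the same order of genotypes. Of 16 major facilitator and MATE transporter loci 0 were higher and 5 lower in limma, 0 and 5 in edgeR and 0 and 3 in DESeq2, and at an unadjusted p of 0.05 there were 1 and 6. AT2G16660 was one of them, with 15.8, 8.67 and 10.3 in prors1 (LUC), against 65.2, 31.3 and 58.4 in Col-0 (LUC) (-2.04 ± 0.29).

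Of 15 loci of RING and U-box proteins, another kind of ubiquitin ligase, 1 was higher and 4 lower. AT4G10160 averaged 34.7 ± 10.9 normalized reads in prors1 (LUC), against 148 ± 57.1 in Col-0 (LUC), and AT5G67120 8.41 ± 1.23 and 39.2 ± 4.89. Of 24 loci of pectin enzymes and their inhibitors 5 were higher and 3 lower, and of 41 transcription factor loci 1 and 4. Of 35 retrotransposon or reverse transcriptase proteins 4 were higher and 2 lower, of 19 NLR disease resistance loci 2 and 0, of 16 pentatricopeptide repeat loci 2 and 0, and of 18 loci of self-incompatibility proteins 1 and 1. Cytochrome P450 and C1 domain loci, 11 of each, had 0 higher and 1 lower each, and the 12 loci of ECA1 gametogenesis proteins had 0 calls in limma, edgeR and DESeq2. At an unadjusted p of 0.05 the ECA1 loci had 1 higher and 0 lower, the NLR loci 5 and 0, the pentatricopeptide repeat loci 2 and 3, the C1 domain loci 1 and 2 and the P450 loci 0 and 1. For these 4 families with calls, edgeR gave the counts of limma, and DESeq2 gave 1 and 0 for the NLR and pentatricopeptide repeat loci and 0 and 1 for the others. Among loci that reached 10 normalized reads in both genotypes, 1 peptide locus was higher and 5 lower, 0 and 2 transporter loci, and 1 and 2 RING and U-box loci. On the same condition 0 transcription factor loci were higher and 4 lower, and 4 and 1 retrotransposon or reverse transcriptase proteins. The pentatricopeptide repeat loci then had 1 and 0, and the self-incompatibility loci 0 and 1. The other families of this paragraph kept their counts. With total reads as the factor, which sets all loci lower alike, the pectin loci had 2 higher and 3 lower, the retrotransposon proteins 3 and 4, and the NLR loci 0 and 0.

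Of the 10 called loci with most reads, 2 lie opposite a tRNA gene. CPA (AT3G05520), which encodes a subunit of the protein that caps actin filaments, had 43070, 37428 and 38801 normalized reads in prors1 (LUC), against 10263, 16404 and 25146 in Col-0 (LUC) (1.29 ± 0.25, limma adjusted p = 0.0017). The Col-0 (LUC) libraries spread more than 2-fold, and the groups did not overlap. SPP2 (AT3G52340), a sucrose-phosphate phosphatase gene with a tRNA gene opposite, had 1784, 1332 and 1686, against 756, 663 and 791 (1.11 ± 0.12, adjusted p = 1.94e-06). AT2G09250, a non-coding locus opposite to RR3, a response regulator gene of cytokinin signalling, had 1460, 1322 and 1376, against 3120, 2635 and 3225 (-1.11 ± 0.11). RR3 had a log2 fold change of -0.40 that did not pass the test (adjusted p = 0.131).

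Of 25 tested loci that overlap a tRNA, snoRNA or snRNA gene, 4 were higher and 4 lower (32%), and of 435 with a gene on the opposite strand 35 and 48 (19.1%). Both shares stand beside 11.9% over all loci, 18.6% of protein-coding loci and 21.4% of long non-coding RNA loci. The second share thus lies within the range of these classes.

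The remaining mutant, rls6, was compared directly with prors1 (LUC) in a fit over all 9 libraries, where 747 of the same loci (16.5%) passed in limma. In that fit prors1 (LUC) against Col-0 (LUC) gave 660 calls, rather than the 540 over 6 libraries. The rls6 libraries had no part in the choice of loci. CAB3 averaged 1036 ± 168 normalized reads in prors1 (LUC) and 81.5 in rls6 (log2 difference 3.64), and CAB2 was higher in prors1 (LUC) too (3.48). Both were tested only because of their prors1 (LUC) libraries, so no p is given for them. ABH1 averaged 87.9 in prors1 (LUC) and 7.34 in rls6 (3.43, limma adjusted p = 1.54e-11). AT4G14810, at MIR780, was lower in prors1 (LUC) than in rls6 (221 and 1848, -3.08, 9.88e-14). AT5G43755 was lower too (4.05 and 244, -5.87), but it was tested only because of its Col-0 (LUC) libraries, and no p is given.

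At other loci the direct difference did not pass. SIG2 averaged 23.7 in prors1 (LUC) and 13.2 in rls6 (adjusted p = 0.141), DEG6 0.321 and 0 (0.680), AT3G51238 1.34 and 1.88 (0.677), TAS4 512 and 596 (0.138), and NAC105 31.2 and 40.3 (0.378). The choice of loci used the prors1 (LUC) values of SIG2, DEG6, AT3G51238 and NAC105, so their p only describes them. A p that misses the threshold does not show that the mutants were alike at these loci.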

How the data were processed

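The authors deposited 1 table with a column per library. The signal values deposited by the authors are reads of a locus over a size factor of its library. In these 6 libraries 100% of values came out as whole reads (tolerance 1e-06) once multiplied by that factor. Trimmomatic, FastQC, Bowtie2, featureCounts and the TAIR10 build are listed per the submitters' processing notes; versions, settings, strand and the treatment of reads with several mapping places are not given in sources used here. The authors' own fold changes and p-values were not used.

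Of the identifiers, 37051 were matched by locus tag to the RefSeq TAIR10.1 annotation, and 285 organelle identifiers were not. Values are per locus and carry the limits of such reads: loci that share sequence share reads. Under R 4.3.3, limma 3.58.1 was fitted to log2(normalized reads + 1) with a mean-variance trend, genotype as the only term, over 6 libraries. This fit had been planned for normalized values, which the authors deposited, and edgeR for raw counts. On the recovered reads edgeR 4.0.16 called 547 loci, 516 of them shared with limma, and DESeq2 1.42.0 called 283, all 283 shared. Exact permutation tests (two-sided, scipy 1.17.1) were run on the shares. The script was tested on simulated data.

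Named were PRORS1 and RBP45D, the up to 15 called loci with the largest and the up to 15 with the smallest fold change (groups not overlapping, mean of at least 10 normalized reads), the up to 10 called loci with most reads, and every called member of 15 gene lists. Of the organelle loci among them only a few are named, since no names are paired with their identifiers. Loci named beside these, in families, runs and overlaps, were chosen after their values were seen. The members, lists and families were chosen with earlier results of these data known. Sites were gapless matches to mature microRNAs on the strand of the locus with at most 3 mismatches, and G:U pairs were counted as mismatches. Replicate pairs differed by more than counting noise (chi-square per degree of freedom 1.92 to 7.13), so each library was counted as 1 sample; this does not show that they came from separate RNA. Total counts per library were 611238 to 702303 reads, and intervals cover counting error only.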

Additional observations from a re-analysis of the deposited data

How the results depend on the processing

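Of the 43 tested loci that met the naming rule, 38 kept their direction and side of the threshold under each of the 19 alternatives that tested them. Another 5 lost the call under at least 1, and 0 turned round. The 43 hold some organelle loci not named above and leave out loci named beside the rule, such as HTA4 and ATCG00700. Most of the 43 were picked for large changes with no overlap, and many reached 10 normalized reads in a single genotype only. The choice itself thus favoured such stability. Counts of calls moved more. DESeq2 called 283 loci (153 higher, 130 lower) and limma without the trend 300 (160 and 140, with 43 chloroplast-encoded loci higher), against 540 (297 and 243, with 66). Total reads as the factor, an alternative added with the data seen, called 166 loci higher and 367 lower. Without a filter 189 loci were lower by 2-fold or more, against 102, and with at least 30 reads 59 were higher and 49 lower by 2-fold or more, against 103 and 102. The cause was not tested. Leaving out 1 library at a time gave 345 to 600 calls, 188 to 358 higher and 149 to 242 lower, 87 to 116 higher and 83 to 99 lower by 2-fold or more, and 43 to 68 chloroplast-encoded loci higher. Calls fell most without Col-0 (LUC) replicate 1, to 345 (196 higher, 149 lower), and to 359 when prors1 (LUC) replicate 1 was left out (188 higher, 43 of them chloroplast-encoded); without Col-0 (LUC) replicate 3, 151 were lower. As a replicate block the numbers gave 613 calls (341 higher, 272 lower). Same-numbered libraries deviated together with correlations of -0.01, 0.16 and 0.10, so the numbers were not taken as pairs, and the block is not evidence of pairing. Loci under the filter were not tested.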
